A study of Mus musculus with 28 samples.

Results

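The phase II conjugation enzymes of the liver were followed as 3 gene families: the glutathione transferases (GST), the cytosolic sulfotransferases (SULT), and the UDP-glucuronosyltransferases (UGT). Members were all genes of the count table whose mouse symbol carries the family prefix, namely *Ugt1a* to *Ugt3a*, *Sult* with a digit, or *Gst* with the class letter a, m, p, t, k, o, or z. This gave 64 genes of 21935 in the table, with 22 GST, 21 SULT, and 21 UGT genes. Comparisons between groups used the 39 members with a mean of at least 1 CPM (the read count per gene scaled to the size of its library) over all 28 mice, which were 19 GST, 6 SULT, and 14 UGT genes. After 2 weeks of treatment, 21 of these 39 genes were called higher with INT-787 than with vehicle and 0 lower, where 19.6% of all genes tested were called, whereas OCA raised 5 and lowered 3, where 6.6% were called. In the direct comparison of both drugs, 17 were higher with INT-787 and 0 lower, where 5.38% were called.

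Conjugation makes lipophilic compounds more water soluble so that they can leave the hepatocyte in bile or blood. UGT enzymes attach glucuronic acid, taken from UDP-glucuronate, to bilirubin, steroids, bile acids, and drugs. SULT enzymes transfer sulfate from the activated donor PAPS to phenols, steroid hormones, and bile acids, and soluble GST enzymes join glutathione to reactive electrophiles such as lipid aldehydes and epoxides. The farnesoid X receptor (FXR) is the bile acid receptor of the liver, and bile acids are themselves substrates of some UGT and SULT enzymes.

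All groups were livers of male B6.V-Lepob/JRj mice, which lack leptin and become obese. The mice were 5 weeks old on arrival, ate AMLN diet, which is high in fat, cholesterol, and fructose, for 14 weeks before treatment and during it, and received their treatment orally once daily for 2 weeks. The groups were vehicle (carboxymethylcellulose, n = 10), obeticholic acid (OCA) 30 mg/kg (n = 9), and INT-787 30 mg/kg (n = 9), with 1 library of poly A-enriched RNA per mouse. OCA is a derivative of chenodeoxycholic acid with an added ethyl group, and INT-787 is OCA with an additional hydroxyl group, so the pair could be compared at a matched dose and time. No lean, chow-fed, or leptin-sufficient mice were among the groups, so a level with vehicle is that of the obese, diet-fed liver. Both drugs were compared with the same 10 vehicle mice.

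Libraries held 9313260 to 22421506 counts, except vehicle replicate 6, with 1009593. Vehicle replicate 5 stood apart in another way, because 15 genes with at least 50% of their exon bases under an expressed gene of the opposite strand summed to 1196 CPM in it, compared with 72.8 to 113.7 CPM in the other 27 mice. Where leaving out both mice changed the call of a described family member, the value without them is given. The liver label was borne out by the hepatocyte markers, whose 8 genes summed to 75109.9 to 142958 CPM in vehicle, 118659 to 210681 CPM in OCA, and 108620.0 to 178676 CPM in INT-787 mice, and 3 of the 8 (*Alb*, *Cps1*, and *Tat*) were higher with either drug. All 7 periportal hepatocyte genes were higher with INT-787 than with vehicle and 6 with OCA (5 with limma-voom), with ranges of 2897 to 3653, 4204 to 7163, and 6191 to 8172 CPM with vehicle, OCA, and INT-787, whereas 0 of 7 pericentral genes passed with INT-787 (0 at an unadjusted p under 0.05, 0 with DESeq2, 0 with limma-voom) and 0 with OCA (1 at an unadjusted p under 0.05, 1 with DESeq2, 0 with limma-voom). The 7 macrophage markers summed to 567 to 774, 451 to 1015, and 372 to 609 CPM in the same order, with 4 lower with INT-787. The 7 stellate cell markers summed to 942 to 1706, 889 to 2560.5, and 400.2 to 869.9 CPM, also with 4 lower with INT-787. The 7 cholangiocyte markers summed to 491 to 809, 449 to 1634, and 343 to 546 CPM, with *Spp1* and *Cftr* lower with INT-787. The endothelial marker *Pecam1* was lower too, and with OCA *Lum*, a stellate cell marker, was higher, but limma-voom called neither. Of the lymphocyte, neutrophil, and red blood cell markers, edgeR called 0 with INT-787 (*S100a9* alone had an unadjusted p under 0.05, and DESeq2 and limma-voom called 0). The part of these cell type genes in the transferase values was not tested, and in whole liver fewer cells of a type cannot be told apart from less RNA per cell. The 5 exocrine pancreas markers stayed at or below 0.578 CPM in sum.

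Together the 64 members took 1.05% of all counts in vehicle mice, 1.04% in OCA mice, and 1.52% in INT-787 mice. *Gstm1*, the main mu-class transferase of mouse liver, made up 40.9% of the summed member CPM with vehicle, a share of reads not scaled to length. Scaled to exon length, the most abundant GST members with vehicle were *Gstm1* at 2838, *Gstm3* at 488, and *Gsta3* at 216 CPM per kb. Among UGT members *Ugt2b36* (177), *Ugt2b5* (175), and *Ugt1a1* (110.2 CPM per kb) led. *Ugt1a1* came first, at 268 CPM per kb, when only exon bases that no other gene on the same strand shares were counted as length. That value keeps all counts given to the gene, and 922 exon bases of *Ugt1a1* also lie under *Gm20528* on the opposite strand. Among SULT members *Sult1a1* (119.8), *Sult1d1* (27.2), and *Sult1e1* (21.6 CPM per kb) led. The summed GST level stood at 7562 ± 1497 CPM in vehicle mice, 8060.1 ± 1131 CPM in OCA mice, and 12434 ± 2407 CPM in INT-787 mice. The SULT sum was 309 ± 77.7, 416 ± 88.03, and 636 ± 107 CPM in the same order, and the UGT sum 2277 ± 290.2, 2242 ± 380.3, and 2579 ± 258 CPM (mean ± SD).

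The other 25 members lay under the limit of 1 CPM. Of these, 6 (*Sult2a4*, *Sult2a5*, *Sult2a6*, *Sult6b2*, *Ugt2a1*, and *Ugt2a2*) had 0 counts among 414922592 in all mice together, which allows up to 3 counts or 0.00723 CPM, 12 had 1 to 50 counts, and 7 had more. For *Ugt2a1* and *Ugt2a2* this is no bound on expression, because 98.8% and 94.5% of their exon bases are shared with another gene on the same strand and the treatment of such reads is not given. Similar sequence in other genes was searched for tested members only. For *Sult2a4*, *Sult2a5*, *Sult2a6*, and *Sult6b2* the bound therefore holds only if their reads could be assigned to them. Of the 21 SULT genes, 6 were tested. Next below the limit stood *Sult2b1*, which sulfates cholesterol, at 0.978 CPM over all mice, with 1.29 ± 0.622, 1.04 ± 0.754, and 0.573 ± 0.236 CPM with vehicle, OCA, and INT-787. Next above it stood *Ugt1a7c* at 1.57 ± 0.794, 1.33 ± 0.497, and 0.959 ± 0.317 CPM.

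The 3 comparisons were then taken one by one. Compared with vehicle, 21 of 39 members were called higher with INT-787, where 19.6% of all 12580 genes tested were called (10.2% higher and 9.48% lower; edgeR's quasi-likelihood test, Benjamini-Hochberg adjusted p of at most 0.05). With upper-quartile scaling, 37.5% of all called genes were higher rather than 51.7%, and 21 members were still called higher. The count of 0 lower stood beside 3 lower members at an unadjusted p under 0.05 (*Gstp1*, *Ugt1a7c*, and *Ugt2b1*), and it was also 0 with DESeq2 and with limma-voom. With OCA, 5 were higher and 3 lower, against a background of 6.6% called (4.15% higher, 2.45% lower). With the replicate number as a block, 8 rather than 5 were higher with OCA. INT-787 and OCA differed directly in 17 members, all higher with INT-787, where 5.38% of all genes were called (2.19% higher, 3.19% lower). In that comparison 0 members were lower at an unadjusted p under 0.05, with DESeq2, or with limma-voom. Without OCA replicate 8, 16 members and 3.51% of all genes were called between the drugs. The median log2 fold change of the 39 members was 0.42 with INT-787 compared with vehicle, 0.07 with OCA, and 0.31 between both drugs, beside medians of -0.00, 0.02, and -0.01 over all genes. Of the 39, 13 were higher with INT-787 than with either other group (1.6% of all genes), 5 were higher with both drugs than with vehicle (3.42%), and 4 (*Gsta2*, *Gsta4*, *Gstm3*, and *Gstt3*) were higher in all 3 comparisons (0.525%). The group means rose from vehicle through OCA to INT-787 in 20 of 39 members (25.2% of all genes) and fell in that order in 4 (22.6%).

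**Figure D1:**
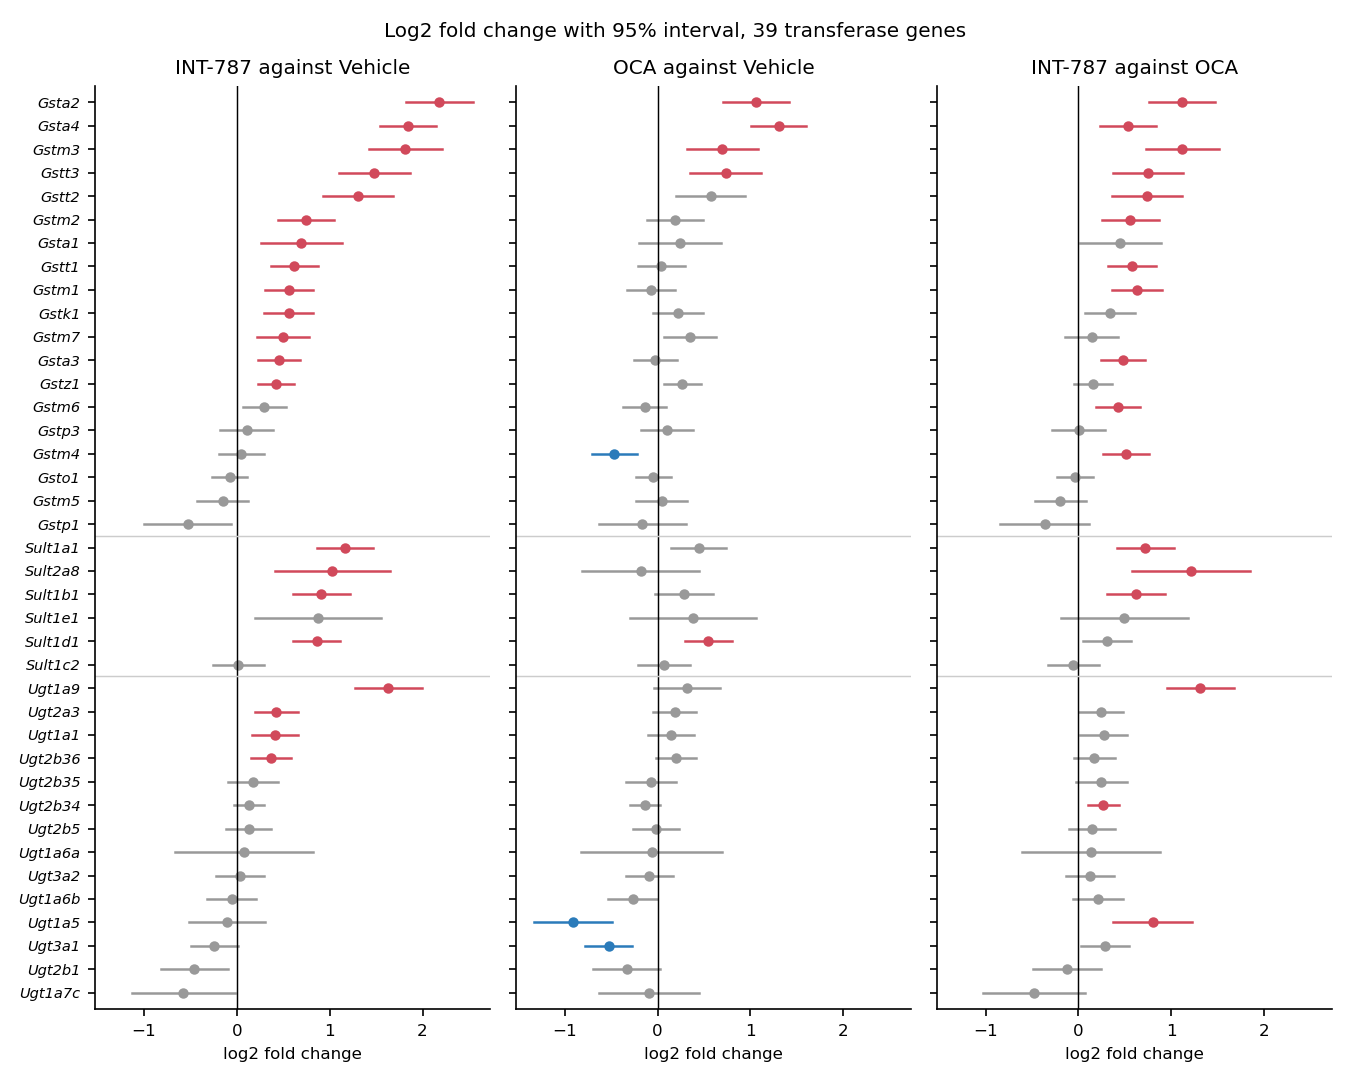
Log2 fold change with 95% interval for the 39 transferase genes tested, in 3 panels (INT-787 against vehicle, OCA against vehicle, INT-787 against OCA), ordered within GST, SULT, and UGT by the INT-787 change. Red marks genes called higher, blue lower, and gray not called: 21 red in the first panel, 5 red and 3 blue in the second, and 17 red in the third.

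The mice of the groups separated fully for some of these genes. The 9 INT-787 mice lay above all 10 vehicle mice for 7 members (*Gsta2*, *Gsta4*, *Gstm3*, *Gstt2*, *Gstt3*, *Sult1a1*, and *Ugt1a9*), where this held for 1.79% of all genes (and 2.66% had no overlap in either direction). All OCA mice lay above all vehicle mice for 1 member, *Gsta4* (0.604%), and all INT-787 mice above all OCA mice for 2, *Gstm1* and *Ugt1a9* (0.199%). No member lay wholly lower in any of the 3 comparisons, as 0.866% of all genes did for INT-787 against vehicle.

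The alpha class of GST enzymes, which handles lipid peroxides and reactive aldehydes, rose with INT-787 in 4 of 4 members (10.2% of all genes), and 3 of 4 were higher than with OCA (2.19%). OCA raised 2 of the 4 (4.15%). *Gsta2* (ENSMUSG00000057933, chr9:78331018-78355788, minus strand, GRCm38) showed the largest log2 fold change of the 39 members with INT-787. Its lowest, median, and highest values were 16.7, 24.5 and 36.98 CPM with vehicle, 30.1, 45.7 and 90.9 CPM with OCA, and 79.4, 108 and 173 CPM with INT-787. Every INT-787 mouse lay above every vehicle mouse, and OCA mice fell between, overlapping both. *Gsta2* was 4.53-fold higher with INT-787 than with vehicle (log2 fold change 2.18, 95% interval 1.82 to 2.54, adjusted p = 6.28e-11) and 2.09-fold higher with OCA (log2 fold change 1.06, 95% interval 0.71 to 1.42, adjusted p = 8.98e-05). INT-787 exceeded OCA by 1.12 on the log2 scale (0.76 to 1.47, adjusted p = 0.000134).

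*Gsta4* (ENSMUSG00000032348, chr9:78182774-78209349, plus strand), whose enzyme conjugates the aldehydes that lipid peroxidation yields, was the member with the strongest response to OCA. It ran (lowest, median, highest) at 70.2, 95.3 and 149.9 CPM with vehicle, 177, 237 and 406 CPM with OCA, and 272, 388 and 449 CPM with INT-787. Neither drug group overlapped the vehicle mice, while 8 of the 9 INT-787 mice lay within the range of OCA. Its log2 fold changes were 1.84 with INT-787 (95% interval 1.54 to 2.14, adjusted p = 5.12e-11) and 1.30 with OCA (1.01 to 1.60, adjusted p = 2.05e-07). The direct difference was smaller, 0.53 (0.23 to 0.84, adjusted p = 0.0273), and was no longer called when any of 4 OCA mice or INT-787 replicate 8 was left out. *Gsta3*, by length the leading alpha gene of these livers, whose enzyme detoxifies aflatoxin epoxide, was at 938 ± 126, 922 ± 192, and 1286 ± 169.9 CPM with vehicle, OCA, and INT-787. It was higher with INT-787 than with vehicle (log2 fold change 0.45, 95% interval 0.22 to 0.68, adjusted p = 0.00414) and than with OCA (0.48, adjusted p = 0.0116). With OCA its log2 fold change was -0.02 (-0.25 to 0.21). *Gsta1* stood at only 3.70 ± 1.06 CPM with vehicle and 6.02 ± 1.65 with INT-787 (log2 fold change 0.69, 95% interval 0.26 to 1.13, adjusted p = 0.0208). This call was lost without INT-787 replicate 3, the highest mouse, and 84.7% of the 75-base windows of *Gsta1* exons are shared with other genes, *Gsta2* among them, so reads of this gene cannot be assigned with certainty.

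**Figure D2:**
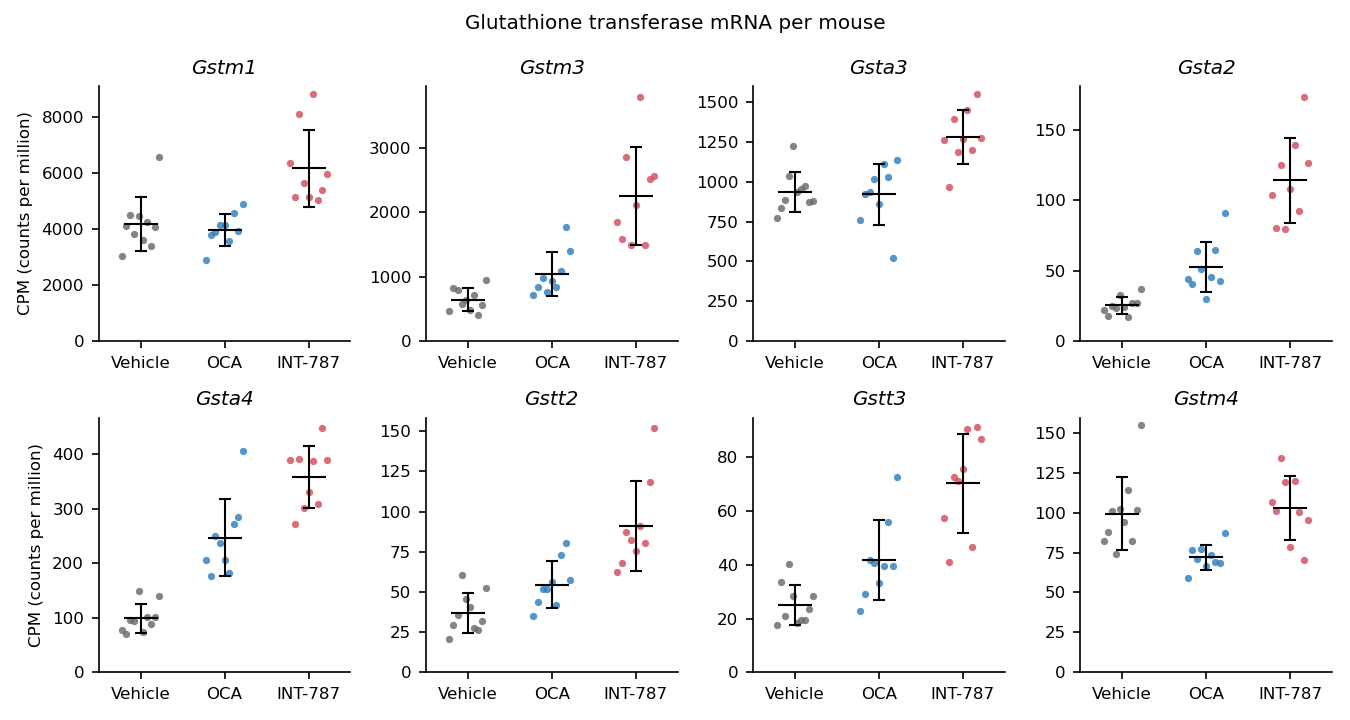
CPM of 8 glutathione transferase genes in every mouse (1 point per mouse, linear axis from 0), with the group mean as a horizontal line and the SD as a vertical bar, for vehicle (n = 10), OCA (n = 9), and INT-787 (n = 9). *Gsta2*, *Gsta4*, *Gstm3*, *Gstt2*, and *Gstt3* show all INT-787 mice above all vehicle mice, *Gstm1* shows all INT-787 mice above all OCA mice, and *Gstm4* shows OCA lowest, at 71.98 ± 7.82 CPM.

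The 7 mu-class genes tested lie side by side on chromosome 3, from *Gstm5* (start at 107895821) to *Gstm4* (end at 108044894). INT-787 raised 4 (*Gstm1*, *Gstm2*, *Gstm3*, and *Gstm7*) compared with vehicle, and 5 were higher with INT-787 than with OCA (*Gstm1*, *Gstm2*, *Gstm3*, *Gstm4*, and *Gstm6*), beside 10.2% and 2.19% of all genes. *Gstm3* (ENSMUSG00000004038, chr3:107963696-107969283, minus strand) ran (lowest, median, highest) at 406, 606 and 956 CPM with vehicle, 709.7, 932 and 1776 CPM with OCA, and 1487, 2123 and 3798 CPM with INT-787. All INT-787 mice exceeded all vehicle mice, and 6 of 9 exceeded the highest OCA mouse. The log2 fold change was 1.82 with INT-787 (1.43 to 2.21, adjusted p = 1.58e-08), 0.70 with OCA (0.31 to 1.08, adjusted p = 0.0184), and 1.12 between the drugs (0.72 to 1.52, adjusted p = 0.000472). The OCA call was not kept when vehicle replicates 5 and 6 were both left out, with a log2 fold change of 0.65 and an adjusted p of 0.055.

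*Gstm1*, the most abundant transferase transcript of these livers (ENSMUSG00000058135, chr3:108012255-108017973, minus strand), ran at 3025, 4079.8 and 6568 CPM with vehicle, 2897, 3912 and 4897 CPM with OCA, and 5049.8, 5629 and 8815 CPM with INT-787. The INT-787 mice lay wholly above the OCA mice, but overlapped the vehicle range through vehicle replicate 10. It was 1.48-fold higher with INT-787 than with vehicle (log2 fold change 0.56, 95% interval 0.30 to 0.83, adjusted p = 0.00185) and 1.55-fold higher than with OCA (log2 fold change 0.63, 95% interval 0.36 to 0.90, adjusted p = 0.00337). With OCA the change from vehicle was -0.07 (-0.33 to 0.19). *Gstm2* was at 141 ± 33.4, 161 ± 39.6, and 237 ± 51.4 CPM with vehicle, OCA, and INT-787, a log2 fold change of 0.74 (adjusted p = 0.000429) with INT-787 and of 0.56 (adjusted p = 0.0241) between the drugs, and the latter call was lost without any one of 4 mice (OCA replicate 1 or 6, INT-787 replicate 3 or 6). *Gstm7* differed from vehicle by 0.50 (adjusted p = 0.00969) with INT-787 and by 0.35 (adjusted p = 0.137) with OCA, and the difference between the drugs was 0.15 (-0.14 to 0.43). The OCA value of *Gstm7* passed with the replicate number as a block (0.43, adjusted p = 0.0212) and without vehicle replicate 10 (0.44, adjusted p = 0.0292). *Gstm6* was higher with INT-787 than with OCA by 0.43 (adjusted p = 0.0238), a call that 2 single mice removed (OCA replicate 1 or INT-787 replicate 8).

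At the end of the cluster, *Gstm4* was lower with OCA. Its values were 73.9, 97.3 and 155 CPM with vehicle, 59.3, 70.7 and 87.1 CPM with OCA, and 70.3, 101 and 134 CPM with INT-787, with the OCA median below the lowest vehicle mouse. *Gstm4* fell by 0.47 on the log2 scale with OCA (-0.71 to -0.23, adjusted p = 0.0112), and was 0.05 (-0.19 to 0.29) with INT-787. The direct difference between the drugs was 0.51 (0.27 to 0.76, adjusted p = 0.00863). *Gstm5*, at the other end of the cluster, was at 19.4 ± 5.14, 19.7 ± 4.42, and 17.3 ± 2.59 CPM and was not called in any comparison.

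The theta class, which acts on small halogenated molecules and lipid peroxides, rose with INT-787 in 3 of 3 tested members, and all 3 were also higher than with OCA (10.2% and 2.19% of all genes). *Gstt3* (ENSMUSG00000001665, chr10:75774115-75781414, minus strand) ran at 17.6, 22.2 and 40.2 CPM with vehicle, 22.8, 39.7 and 72.8 CPM with OCA, and 41.1, 72.7 and 91.1 CPM with INT-787. INT-787 mice did not overlap vehicle mice, and OCA mice overlapped both groups. Its log2 fold changes were 1.48 (adjusted p = 4.56e-07) with INT-787, 0.73 (adjusted p = 0.0115) with OCA, and 0.75 (adjusted p = 0.0140) between the drugs. *Gstt2*, with 20.7, 33.8 and 60.5 CPM with vehicle, 35.02, 51.9 and 80.3 CPM with OCA, and 62.3, 82.3 and 152 CPM with INT-787, was 2.47-fold higher with INT-787 (log2 fold change 1.31, 95% interval 0.93 to 1.68, adjusted p = 3.29e-06). With OCA it missed the threshold (log2 fold change 0.57, 95% interval 0.20 to 0.94, adjusted p = 0.0561), but it passed with DESeq2, with limma-voom, and without any one of 6 mice. *Gstt1*, the most abundant theta gene at 186 CPM per kb with vehicle, differed from vehicle by 0.62 (adjusted p = 0.000503) with INT-787 and 0.04 (-0.22 to 0.29) with OCA.

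The kappa, zeta, omega, and pi classes completed the family. *Gstk1*, the kappa transferase of mitochondria and peroxisomes, was at 139 ± 35.9, 162 ± 30.3, and 205 ± 37.1 CPM and was higher with INT-787 than with vehicle (log2 fold change 0.56, 95% interval 0.29 to 0.83, adjusted p = 0.00243). *Gstz1*, the maleylacetoacetate isomerase of tyrosine breakdown, was at 495 ± 66.6, 595 ± 91.3, and 663 ± 89.3 CPM and was also higher (log2 fold change 0.42, 95% interval 0.22 to 0.62, adjusted p = 0.00207). Neither was called between INT-787 and OCA, with intervals of 0.07 to 0.61 for *Gstk1* and -0.05 to 0.36 for *Gstz1*. The omega gene *Gsto1* and the pi genes *Gstp1* and *Gstp3* were not called in any comparison. *Gstp1* had the lowest log2 fold change of the family with INT-787, -0.53 (-0.997 to -0.06, adjusted p = 0.106), at 192 ± 99.7 CPM with vehicle and 133 ± 44.9 with INT-787.

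Of the 6 sulfotransferases tested, INT-787 raised 4 (*Sult1a1*, *Sult1b1*, *Sult1d1*, and *Sult2a8*) and OCA raised 1 (*Sult1d1*) compared with vehicle, where 10.2% and 4.15% of all genes were higher. Between the drugs, 3 were higher with INT-787 (*Sult1a1*, *Sult1b1*, and *Sult2a8*), where 2.19% of all genes were. *Sult1a1*, the phenol sulfotransferase and by length the leading SULT transcript (ENSMUSG00000030711, chr7:126672865-126676432, minus strand), ran at 120.5, 177 and 272 CPM with vehicle, 174, 227 and 349 CPM with OCA, and 290.3, 397 and 521 CPM with INT-787. INT-787 mice lay above every vehicle mouse, and 8 of 9 above the highest OCA mouse. The gene was 2.24-fold higher with INT-787 than with vehicle (log2 fold change 1.16, 95% interval 0.86 to 1.46, adjusted p = 5.21e-07) and 1.65-fold higher than with OCA (log2 fold change 0.72, 95% interval 0.41 to 1.03, adjusted p = 0.00345). With OCA it missed the threshold (log2 fold change 0.44, 95% interval 0.14 to 0.74, adjusted p = 0.0670), but it passed when vehicle replicate 5, its highest vehicle mouse, was left out (0.52, adjusted p = 0.0209), as it did without vehicle replicates 5 and 6 together (0.48, adjusted p = 0.0441), without vehicle replicate 2, or without OCA replicate 1. Of its 1507 exon bases, *Sult1a1* shares 61 with *Sgf29* on the opposite strand.

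*Sult2a8* (ENSMUSG00000030378, chr7:14410686-14446769, minus strand), which sulfates bile acids in mouse liver, was the only one of 9 *Sult2* genes tested. It ran at 5.38, 10.5 and 21.6 CPM with vehicle, 1.43, 10.5 and 31.3 CPM with OCA, and 16.3, 23.5 and 43.8 CPM with INT-787. The medians of OCA and vehicle were alike, and only 3 vehicle mice and 1 OCA mouse reached the lowest INT-787 mouse. The log2 fold change was 1.03 with INT-787 (0.41 to 1.65, adjusted p = 0.0153), -0.18 with OCA (-0.82 to 0.45, adjusted p = 0.837), and 1.21 between the drugs (0.58 to 1.84, adjusted p = 0.0169). Without OCA replicate 3, the mouse at 31.3 CPM, the OCA value was -0.56 (adjusted p = 0.281) and the difference between the drugs 1.59.

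The remaining tested sulfotransferases were neighbours on chromosome 5, apart from *Sult1c2*. *Sult1b1*, which acts on thyroid hormones and phenols, was at 11.6 ± 2.47, 14.05 ± 3.25, and 21.7 ± 5.78 CPM, with log2 fold changes of 0.91 (adjusted p = 4.71e-05) for INT-787 and 0.29 (adjusted p = 0.320) for OCA. *Sult1d1*, a catecholamine sulfotransferase of the mouse, was at 66.8 ± 14.5, 98.5 ± 17.5, and 122 ± 24.2 CPM. It rose with INT-787 by 0.86 (adjusted p = 5.66e-06) and with OCA by 0.55 (adjusted p = 0.00451), and the drugs differed by 0.31 (0.05 to 0.57, adjusted p = 0.161). *Sult1e1*, the estrogen sulfotransferase, varied widely between mice, at 7.46, 26.9 and 67.1 CPM with vehicle, 13.7, 32.2 and 62.3 CPM with OCA, and 17.1, 52.9 and 83.4 CPM with INT-787. All 3 groups overlapped over most of their range, and with INT-787 the change of 0.88 (0.20 to 1.55) did not pass (adjusted p = 0.0605). It passed with limma-voom (1.05, adjusted p = 0.0314), without INT-787 replicate 2 (0.99, adjusted p = 0.0305), without vehicle replicate 5 (1.13, adjusted p = 0.0120), and without vehicle replicates 5 and 6 together (1.09, adjusted p = 0.0204). *Sult1c2* was at 9.09 ± 2.40, 9.15 ± 1.78, and 8.80 ± 1.80 CPM and was not called.

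**Figure D3:**
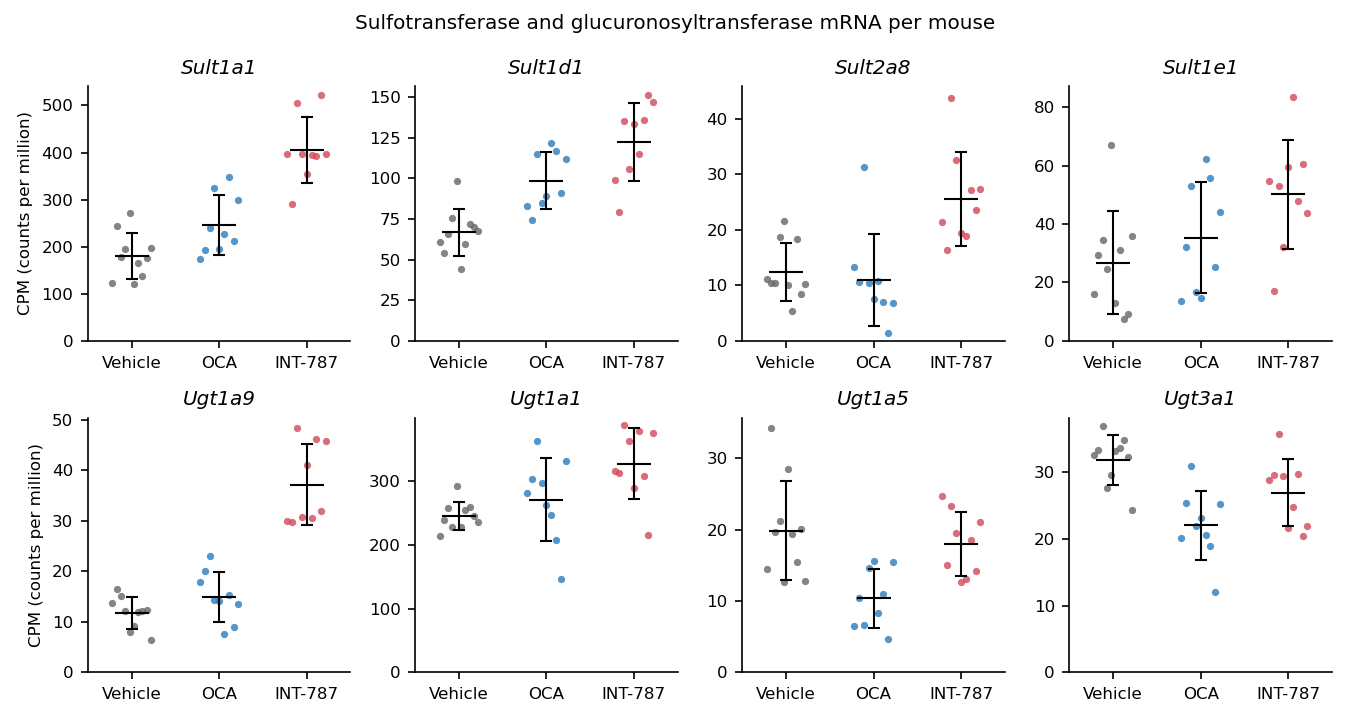
CPM of 4 sulfotransferase genes (upper row) and 4 glucuronosyltransferase genes (lower row) in every mouse (1 point per mouse, linear axis from 0), with the group mean as a horizontal line and the SD as a vertical bar, for vehicle, OCA, and INT-787. *Sult1a1* and *Ugt1a9* show all INT-787 mice above all vehicle mice, *Sult1e1* shows overlap of all 3 groups, and *Ugt1a5* and *Ugt3a1* show the lowest means with OCA (10.4 ± 4.13 and 22.03 ± 5.21 CPM).

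In the UGT family, INT-787 raised 4 of 14 genes compared with vehicle (*Ugt1a1*, *Ugt1a9*, *Ugt2a3*, and *Ugt2b36*), where 10.2% of all genes were higher, OCA lowered 2 (*Ugt1a5* and *Ugt3a1*) and raised 0 (0 at an unadjusted p under 0.05, 0 with DESeq2, 0 with limma-voom), where 2.45% of all genes were lower and 4.15% higher, and 3 were higher with INT-787 than with OCA (*Ugt1a5*, *Ugt1a9*, and *Ugt2b34*), where 2.19% of all genes were. The median log2 fold change of the 14 was 0.10 with INT-787 and -0.08 with OCA, compared with 0.56 and 0.19 for GST members and 0.89 and 0.34 for SULT members.

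The *Ugt1a* genes share their last exons on chromosome 1, and each has a first exon and a start of its own. The 250 bases before the start of *Ugt1a9*, *Ugt1a5*, and *Ugt1a1* (RefSeq starts, mouse build GRCm38.p6, plus strand) are shown because these 3 genes of the locus were called in different comparisons. Capitals mark the nuclear receptor half-site AGGTCA or its reverse complement. The windows are chr1:88070529-88070778, chr1:88165762-88166011, and chr1:88211709-88211958.
Ugt1a9: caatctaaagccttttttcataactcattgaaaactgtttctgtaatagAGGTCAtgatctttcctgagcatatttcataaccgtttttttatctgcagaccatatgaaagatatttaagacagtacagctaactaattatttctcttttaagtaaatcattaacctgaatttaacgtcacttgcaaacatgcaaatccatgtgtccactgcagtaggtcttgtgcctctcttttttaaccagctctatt
Ugt1a5: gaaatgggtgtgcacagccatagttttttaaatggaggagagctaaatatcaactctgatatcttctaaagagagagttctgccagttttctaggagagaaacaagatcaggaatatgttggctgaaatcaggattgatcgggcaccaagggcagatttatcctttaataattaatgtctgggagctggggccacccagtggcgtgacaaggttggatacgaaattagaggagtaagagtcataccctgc
Ugt1a1: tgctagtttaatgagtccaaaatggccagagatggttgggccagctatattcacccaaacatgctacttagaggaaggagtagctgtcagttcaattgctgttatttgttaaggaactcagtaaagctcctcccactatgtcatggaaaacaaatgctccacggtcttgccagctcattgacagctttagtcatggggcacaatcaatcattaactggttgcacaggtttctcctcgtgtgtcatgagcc
The half-site stood once in the window of *Ugt1a9* and was not found in those of *Ugt1a5* and *Ugt1a1*. Over all 32851 upstream windows of this length, 14.02% held these letters on either strand.

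*Ugt1a9* (ENSMUSG00000090175, chr1:88070800-88218997, plus strand), a phenol and drug glucuronosyltransferase, separated INT-787 from both other groups. It ran at 6.44, 12.2 and 16.5 CPM with vehicle, 7.63, 14.3 and 22.96 CPM with OCA, and 29.8, 31.97 and 48.4 CPM with INT-787. The lowest INT-787 mouse lay above the highest mouse of either other group. *Ugt1a9* was 3.10-fold higher with INT-787 than with vehicle (log2 fold change 1.63, 95% interval 1.28 to 1.99, adjusted p = 2.26e-08) and 2.49-fold higher than with OCA (log2 fold change 1.31, 95% interval 0.96 to 1.67, adjusted p = 1.15e-05). OCA and vehicle differed by 0.32 (-0.04 to 0.68, adjusted p = 0.347).

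*Ugt1a5* (ENSMUSG00000089943, chr1:88166012-88218997, plus strand) was lower with OCA. Its values were 12.7, 19.6 and 34.2 CPM with vehicle, 4.72, 10.4 and 15.6 CPM with OCA, and 12.7, 18.5 and 24.7 CPM with INT-787. INT-787 and vehicle covered much the same range, while the OCA median lay below the lowest mouse of both. The log2 fold change with OCA was -0.91 (-1.33 to -0.49, adjusted p = 0.00452), with INT-787 -0.11 (-0.52 to 0.30), and between the drugs 0.80 (0.38 to 1.23, adjusted p = 0.0186). *Ugt1a1* (ENSMUSG00000089960, chr1:88211959-88218997, plus strand), the bilirubin glucuronosyltransferase and by length the leading gene of the locus, ran at 213, 242 and 292 CPM with vehicle, 147, 281 and 363 CPM with OCA, and 214, 316 and 387 CPM with INT-787, with 7 of 9 INT-787 mice above the highest vehicle mouse. The rise with INT-787 was 1.33-fold (log2 fold change 0.41, 95% interval 0.17 to 0.66, adjusted p = 0.0139), and with OCA the change was 0.14 (-0.10 to 0.39). *Ugt1a6a*, *Ugt1a6b*, and *Ugt1a7c* were not called. Between 51.2% and 78.8% of the 75-base windows of these 6 *Ugt1a* genes are shared with another gene, so the counts depend on how shared reads were assigned, and all 6 also share exon bases with *Gm20528* on the opposite strand.

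The *Ugt2* genes on chromosome 5, which act on steroids and bile acids, had 2 members called with INT-787. *Ugt2a3* was at 119 ± 13.2, 135 ± 33.3, and 160.2 ± 27.3 CPM (log2 fold change 0.42, 95% interval 0.19 to 0.66, adjusted p = 0.00792 with INT-787). *Ugt2b36* was at 365 ± 77.4, 419.6 ± 60.00, and 472 ± 54.99 CPM (log2 fold change 0.37, 95% interval 0.15 to 0.59, adjusted p = 0.0125). Both rose with INT-787, and neither was called with OCA or between the drugs. *Ugt2b34* was higher with INT-787 than with OCA by 0.27 (0.11 to 0.43, adjusted p = 0.0419), at 457 ± 45.5, 416 ± 48.7, and 502 ± 43.5 CPM. That call was not kept with upper-quartile scaling, without a filter, in a fit of the 2 groups alone, or without any one of 11 mice. *Ugt2b1*, which belongs to the same group, ran at 146, 174 and 284 CPM with vehicle, 53.4, 159 and 224 CPM with OCA, and 78.5, 149 and 203 CPM with INT-787. It was not called in any comparison, with -0.46 for INT-787 (-0.82 to -0.10, adjusted p = 0.0655) and -0.33 for OCA (-0.69 to 0.03, adjusted p = 0.318). It was called lower with INT-787 under upper-quartile scaling (-0.52), in a fit of the 2 groups alone (-0.46), and without INT-787 replicate 3 (-0.54) or OCA replicate 8 (-0.46). *Ugt2b5* was at 326 ± 78.99, 323 ± 55.01, and 357 ± 51.4 CPM, with 0.13 for INT-787 (-0.12 to 0.37).

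*Ugt3a1* (ENSMUSG00000072664, chr15:9276888-9315032, plus strand), which uses UDP-N-acetylglucosamine rather than UDP-glucuronate, was lowered by OCA. It ran at 24.3, 32.8 and 36.9 CPM with vehicle, 11.97, 21.9 and 30.9 CPM with OCA, and 20.5, 28.8 and 35.8 CPM with INT-787, with every OCA mouse below the vehicle median. The log2 fold change was -0.53 with OCA (-0.78 to -0.28, adjusted p = 0.00573), -0.24 with INT-787 (-0.49 to 0.01, adjusted p = 0.175), and 0.29 between the drugs (0.03 to 0.54, adjusted p = 0.192). Its neighbour *Ugt3a2* was at 291 ± 46.2, 274 ± 70.7, and 299 ± 36.5 CPM and was not called. In all, *Gstm4*, *Ugt1a5*, and *Ugt3a1* were called lower with OCA and not called with INT-787 (0.779% of all genes), and for *Gstm4* and *Ugt1a5* the difference between the drugs was itself called (0.215%), whereas for *Ugt3a1* it was not.

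**Figure D4:**
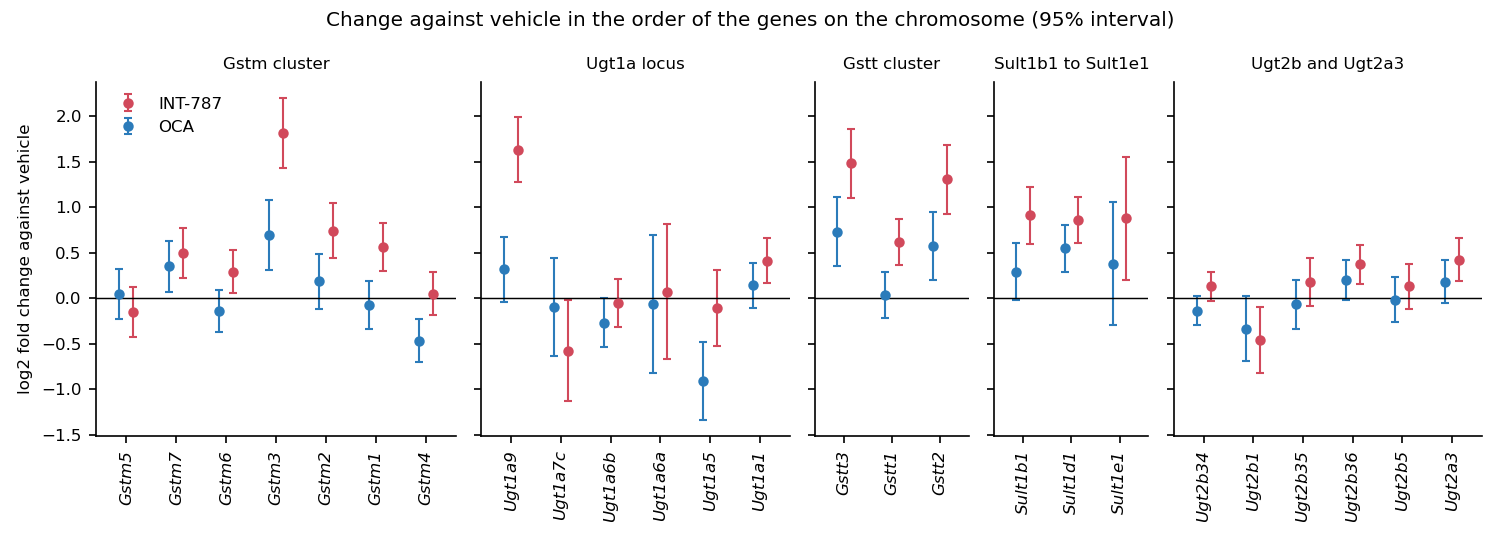
Log2 fold change against vehicle with 95% interval for INT-787 (red) and OCA (blue), with members of 5 gene clusters in their order along the chromosome. *Gstm3* lies at 1.82 with INT-787 between *Gstm6* (0.29) and *Gstm2* (0.74), and *Ugt1a9* lies at 1.63 where *Ugt1a5* lies at -0.11.

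INT-787 and OCA, which differ by a hydroxyl group, were compared directly for all 39 members at the same dose and time. The members called higher with INT-787 by at least 1 on the log2 scale were *Gsta2*, *Gstm3*, *Sult2a8*, and *Ugt1a9*. The share of all genes at that size was not taken, so their number has no background to be read against. For the 22 members not called, a p that misses the threshold does not show that the compounds act alike. Their 95% intervals lay between -1.03 (the lower bound of *Ugt1a7c*) and 1.18 (the upper bound of *Sult1e1*), and for 20 of the 22 they stayed within a log2 difference of 1 in either direction. *Gstp3* (0.00, -0.28 to 0.29), *Gsto1* (-0.03, -0.23 to 0.16), and *Sult1c2* (-0.05, -0.33 to 0.23) were the genes whose direct difference lay nearest to 0.

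Upstream windows were matched for 35 of the 39 members tested (all but *Gsta4*, *Gstt2*, *Ugt1a6b*, and *Ugt3a2*), as 44 windows, and searched for 3 short motifs on both strands. TGACCT, the reverse complement of AGGTCA, can overlap the antioxidant response core, and each motif was counted separately. Counting windows, the nuclear receptor half-site AGGTCA stood in 9 of 44, in *Gstk1*, *Sult1b1*, *Sult1e1*, *Sult2a8*, *Ugt1a7c*, *Ugt1a9*, *Ugt2b35*, *Ugt2b36*, and *Ugt2b5*. The dioxin response core GCGTG also stood in 9, where 28.2% of all windows held it. The antioxidant response core TGACNNNGC, the site bound by NRF2, stood in 3 (*Gsta3*, *Gstm5*, and *Gstm7*), where 10.2% of all windows held it. The window of *Gsta3*, at chr1:21240335-21240584 on the plus strand, is shown as an example of a match to this core, in capitals.
Gsta3: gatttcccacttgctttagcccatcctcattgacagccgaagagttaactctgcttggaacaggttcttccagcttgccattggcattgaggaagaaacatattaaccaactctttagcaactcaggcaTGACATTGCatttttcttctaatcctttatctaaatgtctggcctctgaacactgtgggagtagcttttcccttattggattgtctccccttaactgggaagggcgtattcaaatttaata
A match says only that the letters are present. The 250 bases do not cover distal elements, and the motif searches make no statement about binding in these livers.

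Genes that supply the conjugation reactions were looked at beside the transferases. Of 8 genes of glutathione synthesis and recycling, 4 were higher with INT-787 (*Gclm*, *Cth*, *Cbs*, and *Mat1a*) and 3 with OCA (*Gclm*, *Cth*, and *Cbs*), beside 10.2% and 4.15% of all genes, and limma-voom called 3 with INT-787. None was called lower, with 2 at an unadjusted p under 0.05 for INT-787 (*Gclc* and *Gsr*) and 1 for OCA (*Gclc*). *Cth*, the cystathionine gamma-lyase that makes cysteine, was at 69.8 ± 15.5, 155 ± 31.3, and 233 ± 64.5 CPM with vehicle, OCA, and INT-787. Its log2 fold changes were 1.73 (adjusted p = 3.37e-10) with INT-787, 1.14 (adjusted p = 3.16e-06) with OCA, and 0.59 (adjusted p = 0.0184) between the drugs. *Gclm*, the modifier subunit of the rate-limiting ligase of glutathione synthesis, differed from vehicle by 0.59 (adjusted p = 8.99e-07) with INT-787 and 0.44 (adjusted p = 0.00021) with OCA, whereas the catalytic subunit *Gclc* was at -0.42 (adjusted p = 0.0786) and -0.40 (adjusted p = 0.180). *Papss2*, which makes the sulfate donor, was higher with INT-787 by 0.89 (adjusted p = 0.00013), and *Ugp2*, which makes UDP-glucose, by 0.33 (adjusted p = 0.0266). They were the 1 of 4 genes of sulfate supply and the 1 of 3 genes of UDP-glucuronate supply that edgeR called with INT-787 (DESeq2 also called 1 of the 4 sulfate supply genes lower), and with OCA the sulfate transporter *Slc26a1* was the 1 gene called (0.33, adjusted p = 0.0283).

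The membrane-bound microsomal glutathione transferases, which are unrelated in sequence to the soluble families and were not members, had 2 genes tested. *Mgst1* was at 3703 ± 851, 2474 ± 624, and 2414 ± 407 CPM. It fell with INT-787, with a log2 fold change of -0.62 (adjusted p = 0.00163), and with OCA, with -0.58 (adjusted p = 0.00695). *Mgst3* fell with OCA (-0.63, adjusted p = 0.00366) and was not called with INT-787 (-0.21, adjusted p = 0.308). Among 11 other conjugating enzymes, *Slc27a5*, the bile acid-CoA ligase ahead of amino acid conjugation, rose with INT-787 by 0.61 (adjusted p = 0.00029) and *Nat8*, which acetylates cysteine conjugates, by 0.72 (adjusted p = 0.00614), while *Nnmt*, a nicotinamide methyltransferase, was lower (-0.92, adjusted p = 0.00870). With OCA edgeR called 0 of the 11 (2 at an unadjusted p under 0.05, 0 with DESeq2, 0 with limma-voom).

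Genes that hydrolyze conjugates or esters, and genes that export conjugates, were counted next. Of 5 tested genes for hydrolysis of conjugates and esters, 4 were lower with INT-787 (*Gusb*, *Arsb*, *Ces1d*, and *Ces1f*) and 3 with OCA (*Arsb*, *Ces1d*, and *Ces1f*), beside 9.48% and 2.45% of all genes. *Gusb*, the beta-glucuronidase, was at 75.8 ± 7.74, 75.8 ± 4.46, and 62.7 ± 9.74 CPM (-0.27, adjusted p = 0.0197 with INT-787). Of 5 exporters, *Abcc2*, the canalicular pump for glucuronide and glutathione conjugates, was higher with INT-787 (0.40, adjusted p = 0.0280), as was *Abcc6* (0.55, adjusted p = 0.000295), where 10.2% of all genes were. *Abcc4* was lower with INT-787 (-0.84, adjusted p = 0.00471) and with OCA (-1.04, adjusted p = 0.00137), where 9.48% and 2.45% of all genes were lower.

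Regulators and their other targets were listed as well. Of 12 receptors and factors known to control these families, INT-787 raised 3, where 10.2% of all genes were higher and 9.48% lower. These were *Nr0b2* (1.62, adjusted p = 2.03e-07), the corepressor induced by FXR, *Nr1i2* (0.58, adjusted p = 0.00711), which encodes the pregnane X receptor, and *Stat5b* (0.45, adjusted p = 0.000951). With OCA, 1 of the 12 was called, *Nr0b2* (1.17, adjusted p = 0.000104), where 4.15% of all genes were higher. Of 8 NRF2 target genes outside the families, 2 were higher with INT-787, *Nqo1* by 0.55 (adjusted p = 0.00746) and *Gpx2* by 1.64 (adjusted p = 0.000713), and 3 were lower, *Srxn1* at -0.36 (adjusted p = 0.0132), *Hmox1* at -0.43 (adjusted p = 0.00974), and *G6pdx* at -0.45 (adjusted p = 0.0127). With OCA, *Gpx2* was higher (1.11, adjusted p = 0.0479) and *Srxn1* and *Hmox1* were lower, but limma-voom did not call *Gpx2*. The mRNA of NRF2 itself, *Nfe2l2*, was at -0.01 (adjusted p = 0.972) with INT-787. As a check of exposure, the FXR targets *Nr0b2*, *Slc51b*, and *Abcb11* were higher and the bile acid synthesis genes *Cyp7a1* and *Cyp8b1* lower with either drug.

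Several of these transferases differ between the sexes in mouse liver, so sex-biased genes outside the families were listed too. All mice were male. Of 5 tested female-predominant genes, 2 were higher with INT-787 (*Cyp2b13* and *Fmo2*, and 1 with limma-voom), where 10.2% of all genes were. With OCA edgeR called 0 (1 at an unadjusted p under 0.05, 0 with DESeq2, 0 with limma-voom), where 6.6% of all genes were called. Of 9 tested male-predominant genes, 4 were lower with INT-787 (*Mup20*, *Cyp7b1*, *Slco1a1*, and *Selenbp2*), where 9.48% of all genes were. Another 2 were higher with INT-787 (*Bcl6* and *Cyp4a12b*, and 1 with DESeq2), where 10.2% of all genes were. With OCA 3 were lower (*Cyp4a12a*, *Cyp7b1*, and *Selenbp2*), where 2.45% of all genes were. *Mup20*, a urinary protein, was at 2196 ± 919, 1523 ± 437, and 744 ± 391 CPM with vehicle, OCA, and INT-787.

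Within groups the members varied by a median coefficient of variation of 24.5% in vehicle mice, 24.1% in OCA mice, and 19.6% in INT-787 mice over the 39 genes. With vehicle, *Ugt1a1* was the steadiest (9.01%) and *Ugt1a6a*, at a mean of 1.63 ± 1.09 CPM, the most variable (66.5%). The steadiest were *Gstm4* with OCA (10.9%) and *Ugt2b34* with INT-787 (8.67%), and the most variable *Sult2a8* (75.2%) and *Ugt1a6a* (56.6%). A few mice held the extremes of many genes at once. Vehicle replicate 10 was the highest vehicle mouse for 14 of 19 GST members and vehicle replicate 1 the lowest for 12. Vehicle replicate 5 was the highest vehicle mouse for 5 of 6 SULT members and for 12 of all 39. With OCA, replicate 9 was highest for 12 GST members and replicate 1 lowest for 11, whereas replicate 8 was lowest for 12 of 14 UGT members. INT-787 replicate 2 was the lowest INT-787 mouse for 19 of all 39 members. Leaving out single mice changed the number of members called to between 21 and 23 for INT-787 against vehicle, 8 and 10 for OCA against vehicle, and 13 and 17 for INT-787 against OCA, where the lowest count was without OCA replicate 1.

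Sequence shared with other genes limits some of these values. Of the 39 members, 16 had no 75-base exon window in common with another gene, 10 had up to 10%, and 13 had more. Besides *Gsta1* and the *Ugt1a* genes, the share was 36.6% for *Gsta2*, 30.4% for *Ugt2b5*, 29.2% for *Gstp1*, 21.6% for *Gstm3*, 11.7% for *Gstm1*, and 11.5% for *Gstt3*. For *Gsta4*, *Gstt1*, *Gstt2*, *Sult1b1*, and *Sult1d1* it was 0. The search took exact matches between annotated transcripts only, so it does not cover reads that align with mismatches or to unannotated sequence.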

How the data were processed

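Liver RNA of 28 mice was sequenced with 1 library per mouse, and according to the study's methods each replicate was a separate animal. Per the labels and methods, the authors enriched poly A RNA with a stranded kit and aligned reads to mouse build GRCm38 with STAR, and they deposited raw read counts per Ensembl gene. The counting program, its strand setting, and its treatment of reads that fit several genes are not given in the sources used here. Of 21935 genes in the table, 21858 could be given a symbol from the GENCODE annotation of that build, and 0 columns belonged to another series.

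Counts were tested with edgeR 4.0.16 in R 4.3.3 (TMM scaling, filterByExpr, quasi-likelihood fit of all 3 groups in 1 model, no covariates), and Benjamini-Hochberg adjustment covered all 12580 genes kept, with a call at 0.05 or less. The same code was tested on simulated data. CPM are counts scaled by TMM library sizes, and levels per kb divide them by the merged exon length. A share of 75-base exon windows, the read length of the kit, gives sequence that occurs in more than 1 gene. Upstream windows came from RefSeq (GRCm38.p6). Library totals set the precision, and the floor for a count of 0 covers counting error only.

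Members tested had a mean of at least 1 CPM. Described with values were those called in at least 1 comparison, the 3 leading genes of each family by length, *Ugt2b1*, and the genes next to the CPM limit. Further members, and *Gclc* and *Nfe2l2*, were named after their values were seen, to complete a class or pair. Some genes of the lists are not reported here. The members and lists were chosen with earlier results of these data known. Alternatives were RLE and upper-quartile factors, no filter, a filter at 1 CPM for the whole table, DESeq2 1.42.0, limma-voom (limma 3.58.1), fits of 2 groups, the replicate number as a block, and leaving out mice. Tables and figures were made with Python 3.11.15 (pandas 2.3.3, numpy 2.4.6, matplotlib 3.10.9).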

Additional observations from a re-analysis of the deposited data

Results flagged for a closer look

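Of 87 sets of values (29 described genes in 3 groups), 6 held 1 mouse set apart from the rest of its group by Dixon's gap test, of which about 1 in 20 is flagged by chance. *Gsta1* reached 9.91 CPM in INT-787 replicate 3, where the next mouse stood at 6.69 CPM. *Gsta4* reached 406 CPM in OCA replicate 9, with the next at 286 CPM. In vehicle replicate 10, *Gstm1* was at 6568 CPM (next 4517) and *Gstm4* at 155 CPM (next 114). *Sult1e1* was at 67.1 CPM in vehicle replicate 5 (next 35.7). *Sult2a8* was at 31.3 CPM in OCA replicate 3 (next 13.3). All 6 were the highest mouse of their group. Without these mice the calls of *Gsta4*, *Gstm1*, *Gstm4*, and *Sult2a8* stayed on their side of the threshold, while *Gsta1* lost its call for INT-787 against vehicle (log2 fold change 0.58, adjusted p = 0.058) and *Sult1e1* gained one (1.13, adjusted p = 0.012), both by edgeR's quasi-likelihood test.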

How the results depend on the processing

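The number of members called was 21 to 22 for INT-787 against vehicle, 8 to 11 for OCA against vehicle, and 16 to 17 for INT-787 against OCA over the 9 settings that changed the scaling, filter, tool, or samples. It was 21 to 23, 8 to 10, and 13 to 17 when each mouse was left out in turn. Among 3219 values of described members under all these settings, 3165 kept their side of the threshold, 27 lost and 27 gained a call, and 0 called values changed sign. Among values not called, 19 near 0 changed sign, in 6 cases (*Gsta3*, *Gstm1*, *Gstt1*, and *Ugt2b5* with OCA, *Gstm4* and *Ugt1a5* with INT-787). Calls held in every setting for 20 of 21, 7 of 8, and 13 of 17 members. A call lower with INT-787 than with vehicle appeared under 4 settings, for 1 gene (*Ugt2b1*). Replicate numbers were not taken to pair the mice. Of 27 same-numbered pairs, 13 had a correlation of deviations over 0.1 (median 0.0904, -0.249 to 0.472, beside a median of 0.0044 for different numbers). The header numbers of the count columns run in sets across the groups. From vehicle replicate 4 on, the mice of such a set carry differing replicate numbers. Neither these correlations nor a block by replicate number tests those sets, and what the header numbers stand for is not given. With the replicate number as a block, 22, 11, and 17 members were called, and OCA raised 8 in place of 5, the added ones being *Gstm7*, *Gstt2*, and *Gstz1*. The member added for INT-787 against vehicle was *Gstm6*. Upper-quartile factors moved the share of called genes that were higher, over all genes, from 51.7% to 37.5% for INT-787 against vehicle, from 62.9% to 52.3% for OCA against vehicle, and from 40.8% to 32.2% for INT-787 against OCA. The causes were not tested. Vehicle replicate 6 held 1009593 counts, so 1 CPM there stands for about 1 read, which limits that library for the lowest members.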
